A study of Mus musculus with 12 samples.

Results

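Interferon-stimulated genes were examined in NIH 3T3 cells, an immortalized mouse fibroblast line, to ask whether siRNA treatment was accompanied by an innate antiviral response. The 9 genes *Stat2*, *Irf9*, *Irf7*, *Ifih1*, *Isg15*, *Ifit1*, *Ifit3*, *Oasl2* and *Bst2* were listed by name, with earlier results of these data known, and matched by symbol to 9 of the 49671 Ensembl gene identifiers in each count table. All 9 passed the filter on low counts, a count over 1 in 3 or more libraries, which left 18668 genes for testing. RNA-seq gave 12 libraries in 4 groups of 3: control siRNA (AllStars negative control) in 0.3% FBS (serum-starved), control siRNA in 15% FBS (serum-stimulated), Lap2 siRNA in 0.3% FBS and Lap2 siRNA in 15% FBS. Stimulation lasted 45 min and followed overnight starvation. The Lap2 siRNA was aimed at all isoforms that the gene *Tmpo* encodes. Cells of all 4 groups were plated in 10% FBS and then transfected with an siRNA, by the Interferin reagent, and no library of untransfected cells was analysed here. An effect that both siRNAs share therefore cannot be told apart from the level of resting cells. Nor can a lower level with Lap2 siRNA be told apart from a level raised by the control siRNA. As no other Lap2 siRNA was sequenced, an effect of its sequence cannot be told apart from one of Lap2 loss. The samples are triplicates, but the labels do not say whether these were separate cultures, so p-values measure the spread between libraries, which may be technical.

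Cells recognise foreign or misplaced RNA and DNA through sensors such as MDA5, which *Ifih1* encodes, and answer by secreting type I interferons. Interferon bound to its receptor activates JAK kinases, which phosphorylate STAT proteins. STAT2 and IRF9 are parts of the complex ISGF3, which enters the nucleus, binds the interferon-stimulated response element (ISRE) and switches on genes whose products block viral entry, translation and release. Fibroblasts are able to make interferon-β and to respond to it, and double-stranded RNA, including some siRNAs, is known as a trigger.

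Total counts per library were 18816519 to 23457484 with control siRNA and 18026298 to 20535682 with Lap2 siRNA in 0.3% FBS. In 15% FBS they were 21191927 to 26265253 and 19230387 to 22838900. Knockdown was checked first on the targeted gene, *Tmpo*. Normalized counts, that is, counts after TMM scaling at the mean effective library size, of *Tmpo* were 2775, 2805 and 2885 in control cells and 982, 1175 and 1093 in Lap2-depleted cells in 0.3% FBS. In 15% FBS they were 3264, 3243 and 3019 in control cells and 767, 745 and 607 in Lap2-depleted cells. The groups lay far apart in both conditions, with *Tmpo* 2.61-fold lower in 0.3% FBS (edgeR adjusted p = 8.73e-16) and 4.50-fold lower in 15% FBS (adjusted p = 3.77e-19). Its locus overlaps that of the noncoding gene *Gm26765* on the other strand. All 11 fibroblast markers were found, led by *Fn1*, *Col1a2* and *Col3a1*. The defining immune cell markers *Cd3e*, *Itgam*, *Irf8* and *Siglech* had no read in any library, and the most abundant of the immune list, the macrophage gene *Cd68*, had a mean of 39.5 normalized counts. The fibroblast markers themselves changed with Lap2 siRNA: in 0.3% FBS 8 were lower and 2 higher, against 18.6% and 17.8% of all genes tested, and in 15% FBS 9 were lower, against 12.1%. Their summed normalized counts went from a mean of 908441 to 617130 in 0.3% FBS and from 978745 to 708724 in 15% FBS, and the part of this in the results below was not tested. In bulk RNA, fewer cells of a type and less RNA per cell cannot be told apart.

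The genes lie on 8 chromosomes in the mm10 coordinates of the count tables, with *Ifit3* (chr19:34583531-34588731) and *Ifit1* (chr19:34640871-34650009) as neighbours on the plus strand. *Stat2* spans chr10:128270576-128292849, *Irf9* chr14:55603571-55610030 and *Oasl2* chr5:114896936-114912234, all on the plus strand. *Isg15* spans chr4:156199424-156200818, *Irf7* chr7:141262706-141266481, *Ifih1* chr2:62595798-62646255 and *Bst2* chr8:71534255-71537456 on the minus strand. *Irf7* overlaps *Phrf1* on the other strand by 45 bases and *Irf9* overlaps *Rnf31* on its own strand by 123 bases, so a few reads there may be shared.

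Because ISGF3 acts through the ISRE, RefSeq windows of 300 bases (250 before and 50 after a start site, build GRCm38.p6) were searched for the ISRE core, written GAAANNGAAA on one strand and TTTCNNTTTC on the other. All 9 genes had a window. A match was present in 6 of them, against 3.99% of 27025 genes with a window. *Isg15* held 3 overlapping matches, *Ifit1*, *Ifit3* and *Bst2* held 2 each, *Stat2* held 1 and *Ifih1* held 1 after its start. The windows of *Irf9*, *Irf7* and *Oasl2* had none, which says only that these letters were not in these windows. The stretches before the start sites that carry the matches are given below in the direction of transcription, with the matches in capitals. They lie on chr4:156200850-156200921 (minus strand) for *Isg15*, chr19:34640760-34640838 (plus) for *Ifit1*, chr19:34583348-34583441 (plus) for *Ifit3*, chr8:71537562-71537627 (minus) for *Bst2* and chr10:128270251-128270310 (plus) for *Stat2*.
Isg15: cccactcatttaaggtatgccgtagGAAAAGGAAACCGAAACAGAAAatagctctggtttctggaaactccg
Ifit1: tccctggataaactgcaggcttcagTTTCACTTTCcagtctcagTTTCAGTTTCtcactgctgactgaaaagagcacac
Ifit3: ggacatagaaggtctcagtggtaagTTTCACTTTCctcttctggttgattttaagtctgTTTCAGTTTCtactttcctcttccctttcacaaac
Bst2: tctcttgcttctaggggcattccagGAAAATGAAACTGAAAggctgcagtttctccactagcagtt
Stat2: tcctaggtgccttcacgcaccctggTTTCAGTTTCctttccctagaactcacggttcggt

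*Ifit1* and *Ifit3* shared the same 2 elements in the same order, TTTCACTTTC and TTTCAGTTTC, and the second of these was also the element of *Stat2*. Read on the other strand, this second element is GAAACTGAAA, which was also the second match of *Bst2*. The element of *Ifih1*, GAAACAGAAA, was at +33 to +42, inside the transcribed part, and was also the last of the 3 in *Isg15*. The GAS core, an element known from the response to interferon-γ and written TTCNNNGAA, which reads the same on both strands, was found in 1 of the 9 genes, *Bst2*, where it overlapped the first ISRE match, and in 9.55% of all genes with a window. Of 77 other interferon-stimulated genes listed for this work, 61 had a window and 28 of these (45.9%) held the ISRE core. A match describes the sequence and is not a measured binding site.

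**Figure D1:**
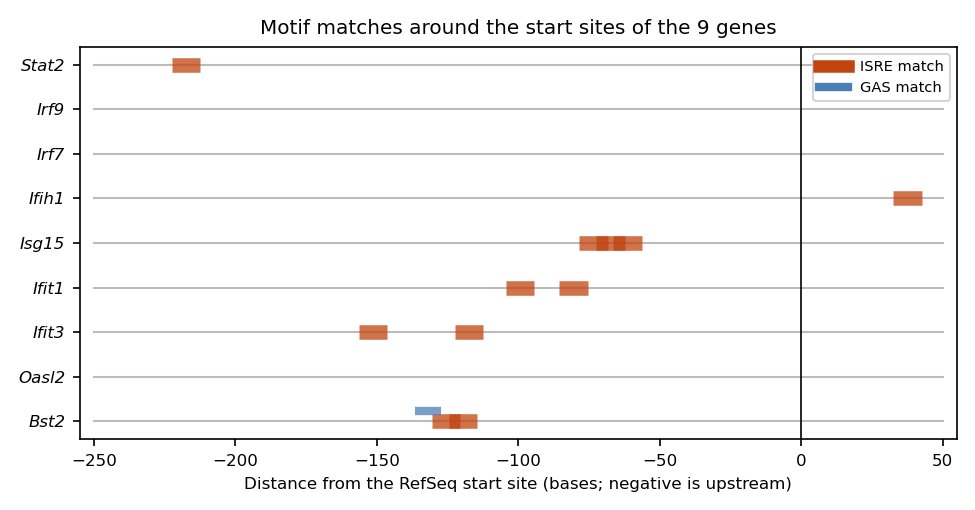
Positions of ISRE and GAS core matches in the RefSeq window of each gene, in bases from the start site (x axis; negative is upstream), for the 9 genes (rows). Matches of 5 genes lie upstream of the start, that of *Ifih1* at +33 to +42, and *Irf9*, *Irf7* and *Oasl2* have none; of the 2 windows of *Irf9*, neither has a match.

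The genes were expressed at very different levels. Levels between genes were set side by side as RPKM, which divide CPM (counts per TMM-scaled library total) by the exon length in kilobases. Control cells in 0.3% FBS had 12.7 ± 1.35 of *Bst2* and 12.5 ± 0.331 of *Stat2* (mean ± SD, n = 3), whose libraries overlapped. *Isg15* followed with 6.35 ± 0.939 RPKM and *Irf9* with 2.46 ± 0.111 RPKM, each apart from the gene above. Levels of *Ifit1* (0.884 ± 0.289 RPKM) and *Ifit3* (0.855 ± 0.0730 RPKM) overlapped. *Irf7*, with 0.685 ± 0.0580 RPKM, was apart from *Ifit3* but within the range of *Ifit1*. The lowest were *Oasl2* (0.185 ± 0.0357 RPKM) and the sensor gene *Ifih1* (0.0741 ± 0.0366 RPKM). Over all 12 libraries, *Bst2* stood at the 76.0th percentile of the tested genes by RPKM and *Ifih1* at the 13.7th. *Bst2* was first in all 4 groups. In Lap2-depleted cells *Oasl2* fell below *Ifih1* in order, with 0.0217 ± 0.0189 RPKM in 0.3% FBS and 0.0461 ± 0.0341 RPKM in 15% FBS. Their libraries overlapped in 15% FBS. After serum in these cells *Isg15* (6.21 ± 0.524 RPKM) stood above *Stat2* (4.93 ± 0.237 RPKM). *Irf7* stood above *Ifit3* in 15% FBS with either siRNA, with overlapping libraries.

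In serum-starved cells, levels of these genes were lower, not higher, with Lap2 siRNA than with control siRNA. Of the 9, 7 were called lower (edgeR adjusted p under 0.05) and 0 higher, against 18.6% lower and 17.8% higher among all genes tested. The median log2 fold change of the 9 was -1.03, and that of all genes tested 0.01. Libraries of the siRNA groups did not overlap for 8 of the 9, all lower with Lap2 siRNA, as for 22.1% of all genes tested. The genes called lower were the transcription factor genes *Stat2* and *Irf7* and all 5 effector genes, while *Irf9* and *Ifih1* were not called.

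Among the signalling genes, *Stat2*, the STAT that is particular to ISGF3, had 1592, 1519.7 and 1591 normalized counts in control cells and 837, 878 and 826 in Lap2-depleted cells in 0.3% FBS. Every Lap2 siRNA library was thus well below every control library. *Stat2* was lower by 0.89 on the log2 scale (log2 fold change -0.89 ± 0.07 SE, edgeR adjusted p = 7.48e-12), or 1.85-fold. *Irf9*, its DNA-binding partner, had 293, 269 and 277 normalized counts in control cells and 251, 229.9 and 217 in Lap2-depleted cells. These groups did not overlap either, but the difference was small, with a log2 fold change of -0.26 ± 0.12 (SE), and was not called (edgeR adjusted p = 0.0961). *Irf7*, the factor that amplifies interferon production and is itself induced by interferon, had 51.0, 59.8 and 52.9 normalized counts in control cells. It had only 6.43, 11.4 and 16.5 with Lap2 siRNA. The highest Lap2 siRNA library was far below the lowest control library, and *Irf7* was 4.79-fold lower (log2 fold change -2.26 ± 0.33 SE, edgeR adjusted p = 9.29e-07).

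*Ifih1* gave few reads, with 12.8, 19.1 and 6.47 normalized counts in control cells and 20.2, 7.28 and 7.21 in Lap2-depleted cells in 0.3% FBS. One Lap2 siRNA library was above all controls and the others were within their range. Its log2 fold change of -0.14 had a 95% interval of -1.11 to 0.82 (edgeR adjusted p = 0.859), and its sign turned without control replicate 2 (0.29) and without replicate 2 (0.11) or 3 (0.11) of the Lap2-depleted cells.

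Of the effectors, *Isg15* encodes a ubiquitin-like modifier that is attached to viral and cellular proteins. Its normalized counts were 111, 84.0 and 109 in control cells and 62.4, 36.4 and 39.1 in Lap2-depleted cells in 0.3% FBS. The groups did not overlap, and *Isg15* was 2.17-fold lower (log2 fold change -1.12 ± 0.20 SE, edgeR adjusted p = 3.57e-05). *Bst2* encodes tetherin, which holds budding virions at the cell surface. It had 242, 266 and 215 normalized counts in control cells and 162, 138 and 171 in Lap2-depleted cells, again without overlap, and was 1.54-fold lower (log2 fold change -0.62 ± 0.13 SE, edgeR adjusted p = 1.83e-04).

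*Ifit1*, whose product binds viral RNA that lacks cap methylation, had 31.4, 54.6 and 62.6 normalized counts in control cells and 21.1, 29.1 and 22.7 in Lap2-depleted cells in 0.3% FBS. The lowest control library was just above the highest Lap2 siRNA library. The log2 fold change was -1.03 ± 0.29 (SE, edgeR adjusted p = 0.00511), and without control replicate 3 it was -0.82 with an adjusted p of 0.0503. *Ifit3*, which encodes a partner of IFIT1, had 30.4, 29.5 and 34.5 normalized counts with control siRNA. With Lap2 siRNA the libraries ranged from 1.03 to 23.9, with 16.6 in between. All were below the controls but far from each other. *Ifit3* was called with a log2 fold change of -1.15 ± 0.45 (SE, edgeR adjusted p = 0.0436), which rested on the libraries used. Without replicate 3 of the Lap2-depleted cells, where 1 read was counted, it was -0.61 (adjusted p = 0.243). The call was also lost without control replicate 1 (-1.16), 2 (-1.18) or 3 (-1.07) in 0.3% FBS, control replicate 2 in 15% FBS (-1.15) or Lap2 siRNA replicate 2 in 0.3% FBS (-1.27), and with DESeq2 (-1.16, adjusted p = 0.0653), totals-only scaling (-1.04) or a fit of the 2 groups alone (-1.16). *Ifit3* has a near-identical neighbour, *Ifit3b*, and how reads that align to both were counted is not given in the sources used here. *Ifit3b* had a log2 fold change of -1.25 ± 0.28 (SE, edgeR adjusted p = 6.04e-04).

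*Oasl2*, a relative of the oligoadenylate synthetases, showed the largest difference between the siRNAs of the 9 on the log2 scale. It had 30.4, 21.7 and 22.7 normalized counts in control cells and 4.59, 4.16 and 0 in Lap2-depleted cells in 0.3% FBS. These values stand for 31, 25 and 21 reads against 5, 4 and 0 reads, and a count of 0 in that library allows up to 3 reads, or 3.09 normalized counts. The log2 fold change was -3.02 ± 0.61 (SE, edgeR adjusted p = 1.32e-04), and it lay between -3.49 and -2.46 over 19 alternatives.

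**Figure D2:**
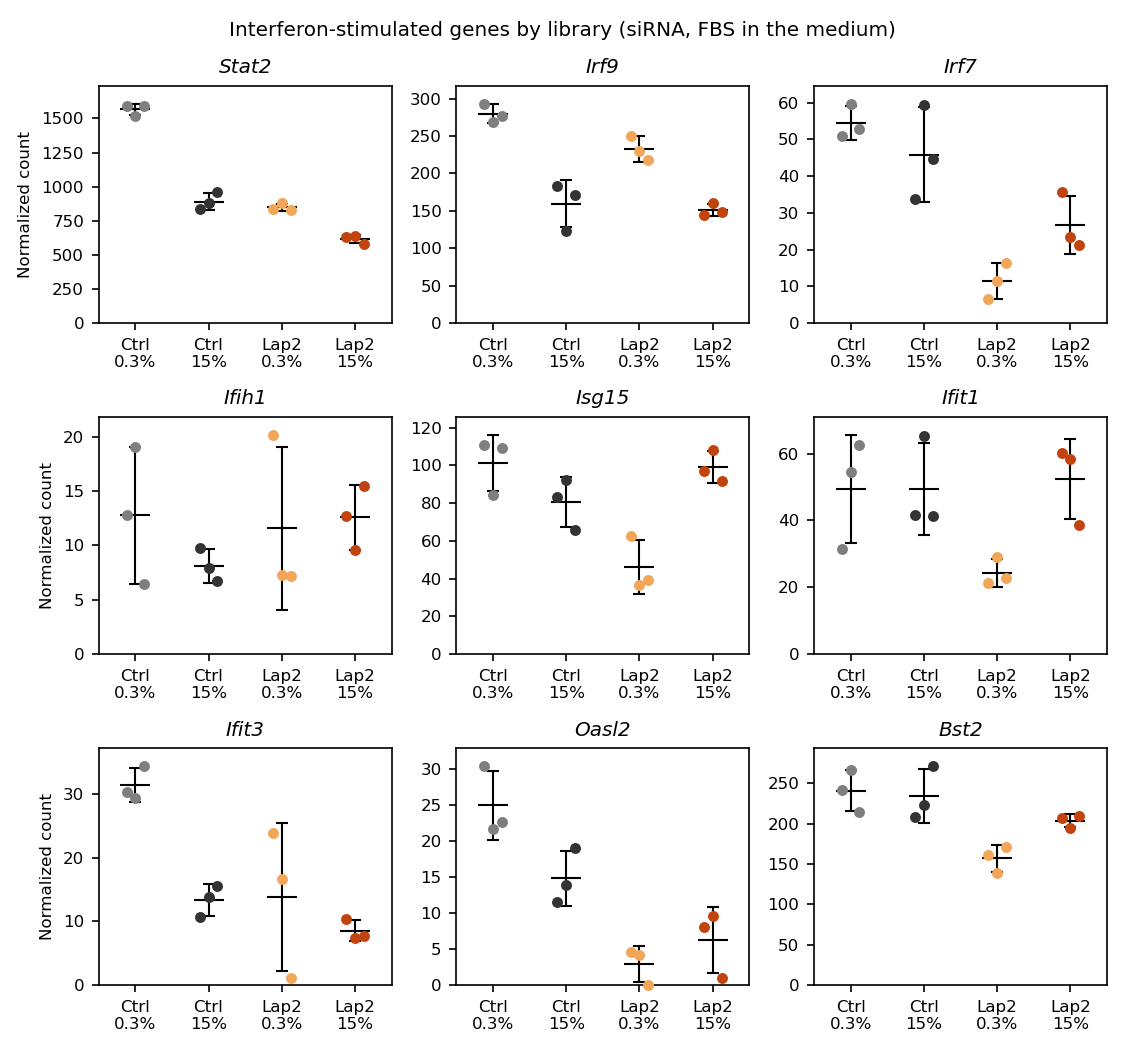
Normalized counts (y axis, from 0) of the 9 genes in each library (points) by siRNA and FBS (x axis), with the mean and SD of the 3 libraries of a group (bars). In 0.3% FBS the Lap2 siRNA libraries are below all control libraries for every gene but *Ifih1*; in 15% FBS this holds for *Stat2*, *Ifit3* and *Oasl2*.

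In serum-stimulated cells most of these genes were not called. Of the 9, 1 was called lower, *Stat2*, and 0 higher, against 12.1% lower and 11.4% higher among all genes tested. The median log2 fold change was -0.20, with 0.02 over all genes tested, and became -0.11 with totals-only scaling, with 0.10 over all genes tested. Libraries did not overlap for 3 genes (*Stat2*, *Ifit3* and *Oasl2*), all lower with Lap2 siRNA, as for 18.5% of all genes tested. *Stat2* had 833, 879 and 959 normalized counts in control cells and 629.5, 637 and 583 in Lap2-depleted cells, with no overlap. It was 1.44-fold lower (log2 fold change -0.53 ± 0.08 SE, edgeR adjusted p = 1.99e-06).

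*Irf7* in 15% FBS had 33.7, 59.3 and 44.6 normalized counts in control cells and 35.8, 23.3 and 21.3 in Lap2-depleted cells. The highest Lap2 siRNA library was above the lowest control library. With a log2 fold change of -0.78 ± 0.30 (SE) and an edgeR adjusted p of 0.0527, it was near the threshold, and 7 of 19 alternatives called it. Among these were the fits without control replicate 1 in 15% FBS (-0.98), without Lap2 siRNA replicate 1 in 15% FBS (-1.03) and without Lap2 siRNA replicate 1, 2 or 3 in 0.3% FBS (-0.79 in each). The other 2 were a fit with no filter and a fit of the 2 groups alone (-0.79 in both).

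*Isg15* had 83.4, 92.0 and 65.8 normalized counts in control cells and 97.0, 108 and 91.8 in Lap2-depleted cells in 15% FBS. The lowest Lap2 siRNA library was just below the highest control library. Its log2 fold change of 0.29 was not called (95% interval -0.08 to 0.67, edgeR adjusted p = 0.316). For *Ifit1*, 41.7, 65.3 and 41.3 normalized counts stood against 60.1, 58.3 and 38.6, with overlapping groups and a log2 fold change of 0.07 (95% interval -0.45 to 0.60). *Bst2* had 209, 224 and 272 normalized counts in control cells and 207, 195 and 209.7 in Lap2-depleted cells, with 1 Lap2 siRNA library above the lowest control. Its log2 fold change was -0.20 (95% interval -0.44 to 0.05).

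The remaining 4 genes were not called in 15% FBS. *Irf9* had 184, 124 and 172 normalized counts against 144, 160.1 and 148, an interval of -0.35 to 0.18 on the log2 scale. *Ifih1* had 9.76, 7.91 and 6.69 against 12.7, 9.54 and 15.5, and an interval of -0.42 to 1.65. Both pairs of groups overlapped. *Ifit3* had 10.6, 13.8 and 15.6 normalized counts against 10.4, 7.42 and 7.73 (log2 fold change -0.64, edgeR adjusted p = 0.467). *Oasl2* had 11.5, 13.8 and 19.0 against 8.09, 9.54 and 0.966 (log2 fold change -1.26, adjusted p = 0.122), and its log2 fold change ran from -1.74 without Lap2 siRNA replicate 2 in 15% FBS to -0.73 without replicate 3 of the same group. The groups of *Ifit3* and *Oasl2* did not overlap, but no difference was called. Both genes had under 20 reads in each of these libraries, and the part of this was not tested.

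The difference between these effects was tested as the interaction of siRNA and serum. All 9 interaction terms were above 0, that is, the Lap2 siRNA value was less negative or more positive in 15% than in 0.3% FBS. Of the 9, 3 were called above 0 and 0 below, against 7.09% and 6.51% of all genes tested. The 3 were *Isg15* (1.41 ± 0.28 SE on the log2 scale, edgeR adjusted p = 4.71e-04), *Irf7* (1.48 ± 0.45, adjusted p = 0.0236) and *Stat2* (0.36 ± 0.10, adjusted p = 0.0185). *Ifit1* missed the threshold with 1.10 ± 0.39 (adjusted p = 0.0609), and the terms of *Oasl2* (1.76 ± 0.88, adjusted p = 0.211) and *Bst2* (0.42 ± 0.18, adjusted p = 0.127) were not called either. For *Isg15* the call was kept in all 18 alternatives, with terms of 1.24 to 1.68. The call of *Irf7* was lost without control replicate 2 in 0.3% FBS (1.37), control replicate 1 in 15% FBS (1.28), Lap2 siRNA replicate 1 in 0.3% FBS (1.15) or Lap2 siRNA replicate 1 in 15% FBS (1.23). That of *Stat2* was lost without control replicate 1 (0.32) or 3 (0.32) in 0.3% FBS, control replicate 1 in 15% FBS (0.30), Lap2 siRNA replicate 3 in 0.3% FBS (0.32), or Lap2 siRNA replicate 1 (0.34) or 2 (0.33) in 15% FBS. Without control replicate 1 or Lap2 siRNA replicate 1 in 15% FBS, 1 gene of the 9 was called.

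**Figure D3:**
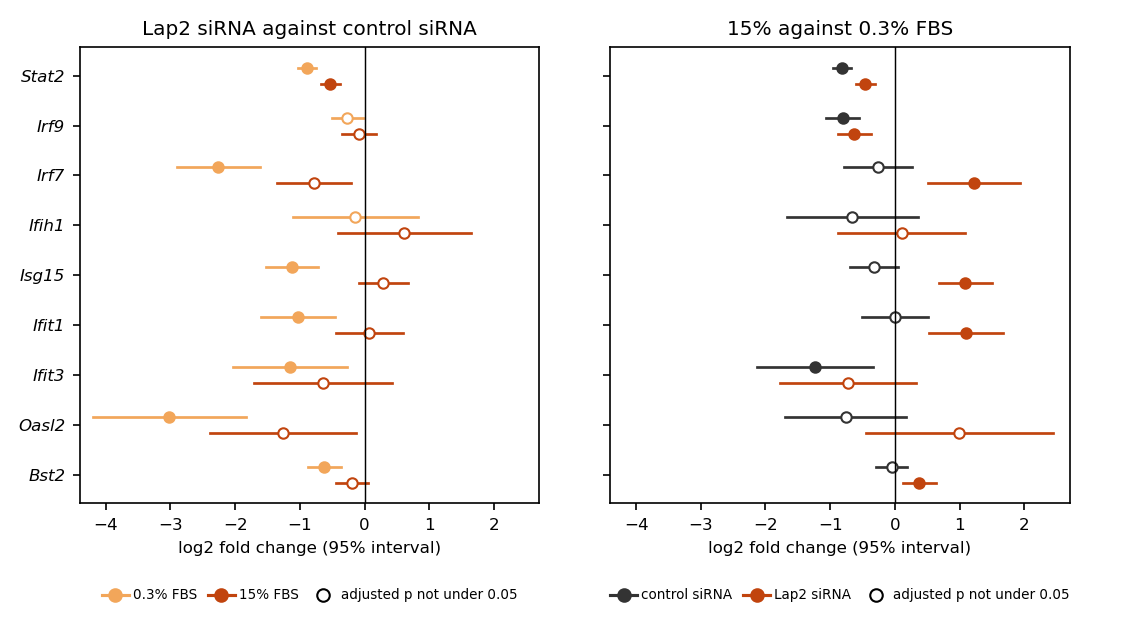
Log2 fold changes (x axis) of the 9 genes (rows) with 95% intervals from the SE, for Lap2 siRNA against control siRNA in each FBS concentration (left) and for 15% against 0.3% FBS with each siRNA (right); filled points have an edgeR adjusted p under 0.05. In 0.3% FBS 7 genes are called lower with Lap2 siRNA, in 15% FBS only *Stat2*, and *Isg15*, *Ifit1*, *Irf7* and *Bst2* are called higher after serum with Lap2 siRNA; the difference from control siRNA is called for *Isg15* and *Irf7* among these.

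The same libraries were compared by serum within each siRNA. Of the 9, 3 were called lower after serum with control siRNA and 0 higher, against 13.9% lower and 15.6% higher among all genes tested, and their median log2 fold change was -0.66 (all genes tested, -0.01). *Stat2* was 1.76-fold lower (log2 fold change -0.82 ± 0.07 SE, edgeR adjusted p = 3.44e-11) and *Irf9* 1.75-fold lower (-0.81 ± 0.13, adjusted p = 5.02e-06), with groups apart in the values given above. *Ifit3* was called with -1.24 ± 0.46 (adjusted p = 0.0379), a call lost with DESeq2 (-1.23, adjusted p = 0.0552). It was also lost without any 1 of the 6 control libraries, with values of -1.25, -1.27 and -1.16 without replicates 1 to 3 in 0.3% FBS and -1.09, -1.27 and -1.36 without replicates 1 to 3 in 15% FBS.

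In Lap2-depleted cells, 4 of the 9 were called higher after serum and 2 lower, against 18.3% and 14.9% of all genes tested, with a median log2 fold change of 0.38 (all genes tested, 0.00). This median was 0.15 with totals-only scaling (all genes tested, -0.23) and 0.26 with upper-quartile scaling (all genes tested, -0.11). *Isg15* was 2.13-fold higher (log2 fold change 1.09 ± 0.21 SE, edgeR adjusted p = 6.91e-05) and *Ifit1* 2.14-fold higher (1.10 ± 0.29, adjusted p = 0.00322), and in both every serum-stimulated library was above every starved one. *Irf7* was 2.33-fold higher (1.22 ± 0.36, adjusted p = 0.00805), a call lost without Lap2 siRNA replicate 1 in 0.3% FBS (0.90) or in 15% FBS (0.97). *Bst2* was called with 0.38 ± 0.13 (adjusted p = 0.0249), but not with totals-only scaling (0.15), upper-quartile scaling (0.27), or without Lap2 siRNA replicate 2 in 0.3% FBS (0.28), replicate 1 in 15% FBS (0.37) or replicate 3 in 15% FBS (0.34). *Stat2* (-0.46 ± 0.08, adjusted p = 1.04e-05) and *Irf9* (-0.63 ± 0.13, adjusted p = 2.81e-04) were lower after serum in these cells too. Both serum comparisons share libraries with the siRNA comparisons, so they are not independent of them.

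Of the 77 other interferon-stimulated genes, 73 were tested, and with Lap2 siRNA in 0.3% FBS 37 of these were called lower and 5 higher, against 18.6% lower and 17.8% higher among all genes tested. Their median log2 fold change was -0.56, against 0.01 over all genes tested. The 4 with the smallest adjusted p among those lower were *Tapbp*, which helps load peptides on class I molecules (log2 fold change -1.88 ± 0.07 SE), the guanylate-binding protein gene *Gbp2* (-2.13 ± 0.11), the peptide transporter gene *Tap1* (-0.89 ± 0.09), and *Ube2l6*, the conjugating enzyme for ISG15 (-1.02 ± 0.11). The 4 leading higher ones were *Slfn9* (1.41 ± 0.10), *Ifi204*, which encodes a DNA-binding protein (0.60 ± 0.10), *Pml*, the scaffold gene of nuclear bodies (0.40 ± 0.08), and *Helz2* (0.37 ± 0.09). Among the 3 most abundant, *Tapbp* had 9945 ± 94.3 normalized counts in control cells and 2700.0 ± 71.7 in Lap2-depleted cells (mean ± SD, n = 3), *Ifitm3* was called lower (-0.38) and *B2m* was not called (0.08).

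In 15% FBS 13 of the 73 were called lower and 7 higher, with a median of -0.08, against 12.1% lower and 11.4% higher among all genes tested, so the count of higher genes was near the background. All 13 were among the 37 called lower in 0.3% FBS. The leading ones were *Tapbp* (-1.48 ± 0.07), *Gbp2* (-1.52 ± 0.11), the class I gene *H2-K1* (-0.59 ± 0.10) and the nucleotide kinase gene *Cmpk2* (-2.21 ± 0.44). Higher were *Trim30a* (0.41 ± 0.07), which was called lower in 0.3% FBS, *Ifi44* (0.99 ± 0.18), *B2m* (0.24 ± 0.07) and *Lgals3bp* (0.31 ± 0.10). When a library was left out, 13 to 21 of these genes were called in 15% FBS, both directions together. With totals-only scaling, which moved the median of all genes by 0.11 in 0.3% FBS and by 0.09 in 15% FBS, 8 were higher and 31 lower in 0.3% FBS, against 25.1% and 14.1% of all genes tested under that scaling. In 15% FBS 13 were then higher and 9 lower, against 18.6% and 8.99%, so the higher count was near the background, and their median was 0.0031 against 0.10 over all genes tested. For the interaction, 18 of the 73 were called above 0 and 2 below, against 7.09% and 6.51% of all genes tested. Calls of the interaction in both directions together numbered 11 to 22 when a library was left out. After serum, 4 of the 73 were called higher and 19 lower in control cells, against 15.6% and 13.9% of all genes tested. In Lap2-depleted cells 20 were higher and 9 lower, against 18.3% and 14.9%, so the count of lower genes was near the background. Totals-only scaling moved the median of all genes by -0.21 and -0.23 in these comparisons. It gave 2 higher and 38 lower in control cells, against 8.74% and 31.3% of all genes tested, and 10 higher and 15 lower in Lap2-depleted cells, against 8.88% and 31.9%. Upper-quartile scaling gave 2 higher and 24 lower in control cells, against 11.7% and 20.8% of all genes tested. In Lap2-depleted cells, with a shift of -0.11, it gave 12 higher and 13 lower, against 12.8% and 21.1%.

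**Figure D4:**
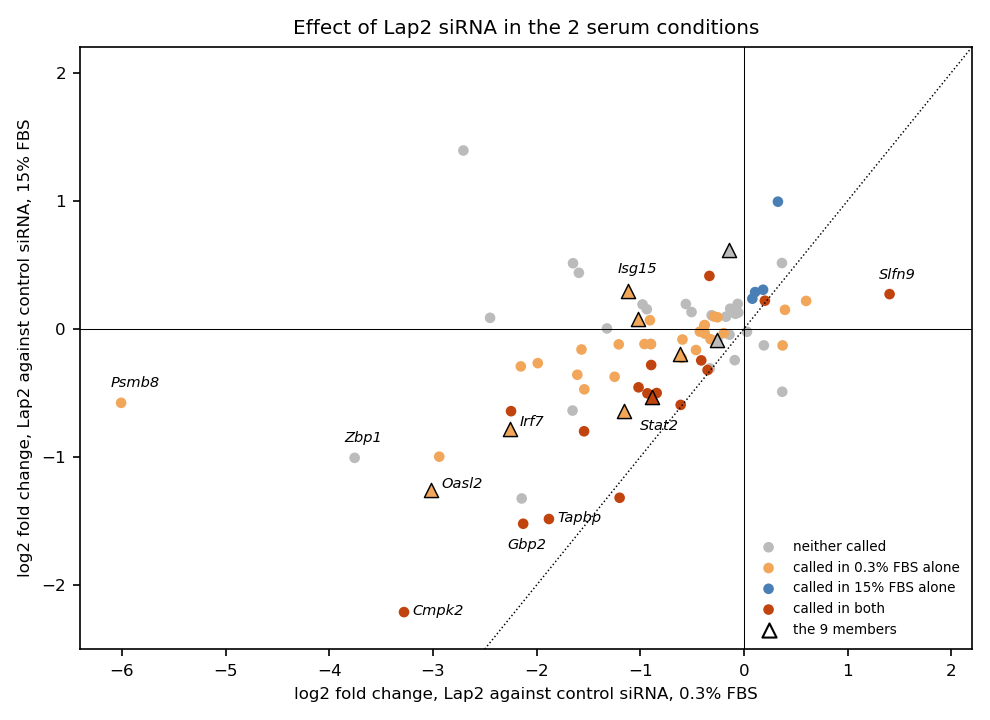
Log2 fold change of Lap2 siRNA against control siRNA in 0.3% FBS (x axis) and in 15% FBS (y axis) for the 73 other interferon-stimulated genes tested (circles) and the 9 genes described (triangles), coloured by where the edgeR adjusted p was under 0.05; the dotted line marks equal values. Of the 73 circles, 60 lie left of 0 and 64 above the line; *Psmb8* and *Zbp1*, with no read in any Lap2 siRNA library in 0.3% FBS, are drawn at fitted values that are not bounds.

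Transcripts of interferons themselves were nearly absent from the counts. Of 15 interferon genes, 13, among them *Ifnb1*, *Ifng* and all 7 *Ifna* genes listed, had no read in any of the 12 libraries. A count of 0 allows up to 3 reads, or 2.60 to 3.47 normalized counts in a library. *Ifne* had 26 reads over all 12 libraries and *Ifnz* had 1.

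Of 17 receptor and signalling genes, which include *Stat2* and *Irf9*, Lap2 siRNA in 0.3% FBS gave 11 lower and 1 higher, against 18.6% and 17.8% of all genes tested. The lowest adjusted p values belonged to *Stat2*, the receptor chain gene *Ifnar1* (log2 fold change -0.46 ± 0.07 SE), the kinase gene *Jak2* (-0.48 ± 0.07) and the feedback inhibitor gene *Socs3* (-0.51 ± 0.08). *Socs1*, also a feedback inhibitor gene, was higher in 0.3% FBS (0.53 ± 0.08) and in 15% FBS (0.96 ± 0.08). In 15% FBS 5 of the 17 were lower, against 12.1% of all genes tested, with the kinase gene *Tyk2* leading (-0.77 ± 0.09), and *Socs1* and *Socs3* (0.33 ± 0.07) were among those called higher.

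Among 26 sensor and adaptor genes, which include *Ifih1* and *Irf7*, 23 were tested. In 0.3% FBS 5 were lower and 5 higher with Lap2 siRNA, near the 18.6% and 17.8% of all genes tested. In 15% FBS 0 were lower and 3 higher, against 12.1% and 11.4% of all genes tested, and the count of higher genes was again near the background. The gene of the cytosolic DNA sensor, *Cgas*, was higher in both (1.04 ± 0.14 and 0.74 ± 0.14), and so was the ubiquitin ligase gene *Traf6* (0.31 ± 0.09 and 0.40 ± 0.09). The kinase gene *Tbk1* (0.54 ± 0.08) and *Irf5* (0.92 ± 0.12) were higher in 0.3% FBS, where the transcription factor gene *Irf1* (-0.57 ± 0.08) and the adaptor gene *Ticam1* (-0.39 ± 0.08) were lower. Also called lower there, besides *Irf7*, were the sensor genes *Ddx58* (-0.19 ± 0.08, edgeR adjusted p = 0.0434) and *Dhx58* (-0.59 ± 0.23, adjusted p = 0.0451). Neither sensor gene was called in 15% FBS. *Mavs*, the adaptor gene downstream of MDA5, was higher in 15% FBS (0.27 ± 0.09).

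Of 11 chemokine and cytokine genes, 6 were tested. In 0.3% FBS *Ccl7* (0.82 ± 0.10), *Ccl2* (0.82 ± 0.11) and *Il15* (0.99 ± 0.22) were higher with Lap2 siRNA, and *Ccl5*, a classical target of the interferon regulatory factors, was lower (-2.60 ± 0.84, edgeR adjusted p = 0.0134), against 17.8% higher and 18.6% lower among all genes tested. In 15% FBS 1 of the 6 was called, *Ccl7*, higher (0.47 ± 0.09), near the 11.4% of all genes tested. The immune markers summed to 61.6 ± 0.864 normalized counts in control cells and 74.9 ± 11.7 in Lap2-depleted cells in 0.3% FBS (mean ± SD, n = 3), and to 52.3 ± 7.06 and 60.6 ± 2.79 in 15% FBS. Of the 10 immune markers 4 were tested, and 1 of these, the macrophage receptor gene *Csf1r*, was called higher in 0.3% FBS (1.46 ± 0.44, edgeR adjusted p = 0.00852), against 17.8% of all genes tested. Of the 5 epithelial markers 2 were tested and neither was called, *Krt18* had no read in any library, and the list, led by *Cdh1*, summed to 15.9 ± 7.38 and 12.2 ± 2.53 normalized counts in 0.3% FBS and to 8.29 ± 3.82 and 7.33 ± 1.22 in 15% FBS. The endothelial markers, led by *Vwf*, summed to 25.8 ± 4.79 and 42.8 ± 11.8 in 0.3% FBS and to 35.6 ± 6.00 and 37.0 ± 7.38 in 15% FBS. *Vwf*, with a mean of only 15.7 normalized counts over all libraries, was called higher with Lap2 siRNA in 0.3% FBS (3.18 ± 0.51) and 15% FBS (1.73 ± 0.47). *Tek* was called lower in 15% FBS (-1.52 ± 0.54). The higher sum of this list in 0.3% FBS came from *Vwf* alone: the other 3 markers tested had log2 fold changes below 0 there and were not called, and the median of the 4 was -0.85. Their part in the results on the 9 genes was not tested.

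To describe the shared pattern of the 9, their log2 CPM were standardized over the 12 libraries and averaged. This mean was 0.848, 1.02 and 0.757 in control cells in 0.3% FBS and -0.346, -0.782 and -1.13 in Lap2-depleted cells in 0.3% FBS. In 15% FBS it ran from -0.0289 to 0.126 with control siRNA and from -0.398 to -0.0242 with Lap2 siRNA, so all but 1 of the serum-stimulated libraries lay between the starved control and the starved Lap2 siRNA libraries. The genes did not follow the mean of the other 8 equally: Pearson's r over the 12 libraries was 0.856 for *Oasl2* and 0.695 for *Irf7*, but 0.166 for *Irf9* and 0.0608 for *Ifih1*. These r are descriptions, since the libraries share 4 conditions. Among 12344 further genes with a mean of 20 or more normalized counts, those most like the mean were *Il11ra1* (r = 0.973), *Lhx8*, *Pdlim2*, *Selenom*, *Slc9a3r2*, *Smim1*, *Pik3r2*, *Wnt9a*, *Hoxd8* and *Limd2* (r = 0.948), and 0 of these 10 belonged to the lists described here.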

How the data were processed

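RNA-seq was made from total RNA of NIH 3T3 cells after removal of ribosomal RNA, with directional libraries on a NextSeq 500. The authors aligned reads with TopHat2 (Chipster, default settings) to mm10 and counted them per gene with HTSeq, and the deposited values are raw counts. The annotation release and the strand setting are not given in the sources used here. A gene symbol was found for 99.31% of the identifiers. No 2 libraries held identical counts.

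Genes with a count over 1 in 3 or more libraries were fitted in 1 model of all 12 libraries (edgeR 4.0.16, R 4.3.3, TMM, quasi-likelihood F test, Benjamini-Hochberg over 18668 genes, threshold 0.05), without a replicate block. The 95% intervals are the log2 fold change plus and minus its SE times the normal quantile. Counting floors are 3 counts and cover counting error only. The steps were tested on simulated data. Replicate numbers did not pair the libraries: 18 correlations of their deviations ran from -0.061 to 0.055. Alternatives were other scalings and filters, DESeq2 1.42.0, a log2 fold threshold of 0.6, the block, the 2 groups alone and leaving out each library. The gene lists, like the members, were chosen with earlier results of these data known. Named from each list were up to 4 called genes per direction with the smallest adjusted p and the most abundant ones. The 10 genes most like the members were taken by Pearson's r with their mean standardized log2 CPM. Some genes of these lists are not reported here.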

Additional observations from a re-analysis of the deposited data

Results flagged for a closer look

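Of the 9 genes, 3 differed in their response to Lap2 siRNA between serum-starved and serum-stimulated cells by the test of the interaction. The log2 fold change was higher in 15% than in 0.3% FBS by 1.412 for *Isg15* (edgeR adjusted p = 4.71e-04), by 1.48 for *Irf7* (adjusted p = 0.0236) and by 0.358 for *Stat2* (adjusted p = 0.0185). Among all genes tested 7.09% were called in this direction. *Isg15* was 2.17-fold lower with Lap2 siRNA in starved cells and not called after serum, whereas *Stat2* was called lower in both. The calls of *Irf7* and *Stat2* were lost when any 1 of 4 and of 6 libraries, named above, was left out.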

How the results depend on the processing

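Over the alternatives, 808 of the single-gene values kept their direction and their side of the threshold, 34 lost a call, 15 gained one and 25 changed sign. The number of the 9 genes called lower with Lap2 siRNA in 0.3% FBS stayed between 5 and 7. In 15% FBS 2 of the 9 were called with no filter and with the 2 groups alone, 0 with the fold threshold, and 1 to 2 when a library was left out. For the interaction, leaving out a library gave 1 to 4 of the 9. *Ifit1* passed there with the replicate block (1.10, edgeR adjusted p = 0.0449), with no filter (1.09) and without control replicate 1 in 0.3% FBS (1.32), control replicate 2 in 15% FBS (1.35) or Lap2 siRNA replicate 3 in 15% FBS (1.28), and *Bst2* without control replicate 3 in 15% FBS (0.55). Without Lap2 siRNA replicate 3 in 0.3% FBS, *Ifit3* was called lower after serum in Lap2-depleted cells (-1.27), and *Isg15* was called lower after serum in control cells with totals-only scaling (-0.53). The block changed no other call of the 9, and over all genes tested it called 6756 in place of 6810 with Lap2 siRNA in 0.3% FBS and 2553 in place of 2540 for the interaction.

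Of the other interferon-stimulated genes, the fold threshold left 25 called with Lap2 siRNA in 0.3% FBS, 7 in 15% FBS, 10 and 16 after serum in control and Lap2-depleted cells, and 13 for the interaction, with 15.4%, 6.27%, 12.6%, 13.3% and 6.05% of all genes tested called in the same comparisons. Totals-only scaling called 40 after serum in control cells, and 40.1% of all genes tested. Leaving out a library gave 13 to 21 in 15% FBS, with 13 without control replicate 1 or Lap2 siRNA replicate 3 in 15% FBS, and 11 to 22 for the interaction, with 11 without control replicate 2 in 0.3% FBS and 13 without Lap2 siRNA replicate 1 in 15% FBS.

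Signs that changed all belonged to values that were not called. For *Ifit1* after serum in control cells the value was -0.206 with totals-only scaling, -0.097 with upper-quartile scaling, -0.007 with edgeR's own filter, -0.003 with no filter and -0.001 with the replicate block, and -0.252 to 0.2 with a library left out. *Irf9* in 15% FBS had 0.002 with totals-only scaling and -0.239 to 0.025 with a library left out. *Ifih1* after serum in Lap2-depleted cells had -0.126 and -0.012 with totals-only and upper-quartile scaling and -0.162 to 0.774 with a library left out. Leaving out a library gave -0.055 to 0.326 for *Ifit1* in 15% FBS, -0.815 to 0.293 for *Ifih1* in 0.3% FBS, -0.041 to 1.149 for the interaction of *Ifit3*, and -0.163 to 0.049 for *Bst2* after serum in control cells. The cause was not tested in any of these. The fold changes of *Ifih1*, *Oasl2* and *Ifit3* had the largest SE of the 9 with Lap2 siRNA in 0.3% FBS, and the reads of *Ifit3* there were 26, 16 and 1 in the Lap2 siRNA libraries.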
